A study of Mus musculus with 8 samples.

Results

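The genes of the late spermatid cytoplasm and the sperm midpiece described here were measured in testicular cells enriched for round spermatids, with and without TDRD6, and 9 were named, namely *Oaz1*, *Oaz2*, *Oaz3*, *Smcp*, *Spem1*, *Car2*, *Calml3*, *Fabp9* and *Meig1*. They were chosen by symbol, with their levels in both genotypes in view, so every difference below is a description and carries no test. Of the 9 genes, 8 had values, through 12 of the 19077 distinct transcripts in the 3 tables of short, medium and long 3' UTR transcripts. *Oaz2* has no value used here.

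RNA was sequenced from testicular germ cells of *Tdrd6*-/- and *Tdrd6*+/- mice on a C57BL/6 background at postnatal day 26, with 4 libraries of each genotype. TDRD6 is a tudor domain protein of the chromatoid body, a cytoplasmic RNA granule of spermatids, and the study asked how the spermatid transcriptome differs when this protein is missing. Both genotypes carry the targeted allele, in which human CD4 is placed in frame with the start codon of *Tdrd6*, and hCD4-bearing cells were taken with magnetic beads. The *Tdrd6*-/- mice carry no intact copy and the heterozygous *Tdrd6*+/- mice, which serve as the control, carry 1, so no wild-type mice enter the comparison. The level of a transcript is given in FPKM, a read count scaled to transcript length and to the mapped reads of the library, and the 4 libraries of a genotype were combined by the authors into 1 value, so the spread between animals is unknown for every level below. A log2 ratio is that of the *Tdrd6*-/- FPKM over the *Tdrd6*+/- FPKM.

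Spermatids assemble the sperm tail and then shed most of their cytoplasm. Their mitochondria are wrapped around the tail to form the midpiece, and many of the messengers for this late work are made early and stored before they are translated. Antizymes, a second theme of the group, hold down polyamines: they bind ornithine decarboxylase, the first enzyme of polyamine synthesis, send it to the proteasome and limit polyamine uptake. An antizyme is made only when the ribosome slips by 1 base at a stop codon within its message, a step that polyamines favour.

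The 3 antizyme genes share that slippage site, and its sequence is shown to set *Oaz3* beside its widely expressed paralogues. Each line gives 30 bases of the mm9 genome on the strand of the gene, 5′ to 3′, with the serine codon and the stop codon of the first reading frame in capitals. The sites lie at chr10:80291025-80291054 on the plus strand for *Oaz1*, chr9:65534064-65534093 on the plus strand for *Oaz2* and chr3:94239942-94239971 on the minus strand for *Oaz3*.
Oaz1: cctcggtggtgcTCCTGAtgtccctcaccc
Oaz2: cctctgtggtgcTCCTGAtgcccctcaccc
Oaz3: tgcctccagtgcTCCTGAgtccctaggagg
The sites were found by searching each gene for the 6 capital letters with the 3 bases before them. These letters are therefore the same in all 3 genes by the search, and they count among the shared bases given next. Over the 30 bases, *Oaz1* and *Oaz2* have 28 in common, whereas *Oaz3* has 13 in common with *Oaz1* and 15 with *Oaz2*. The GENCODE M1 models step over the slip with a gap of 4 bases between annotated exons at this site. *Oaz1* and *Oaz3* each have a protein-coding model there, whereas none of the 8 *Oaz2* models is annotated as protein-coding.

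*Tdrd6* itself separated the genotypes as labelled. Its most abundant transcript, ENSMUST00000168073, had 1.29 FPKM in *Tdrd6*-/- cells and 40.6 FPKM in *Tdrd6*+/- cells. ENSMUST00000045717 had 0.174 FPKM in *Tdrd6*-/- cells and 16.0 FPKM in *Tdrd6*+/- cells, and ENSMUST00000166046 was listed at 0 in *Tdrd6*-/- cells and at 0.540 FPKM in *Tdrd6*+/- cells. The cells carried the messengers of their label, with each of the 8 round spermatid markers between 56.2 and 216 FPKM in *Tdrd6*-/- cells and between 79.4 and 341 FPKM in *Tdrd6*+/- cells. The 8 pachytene spermatocyte markers were also present, at a sum of 6137 FPKM in *Tdrd6*-/- cells and 7586 FPKM in *Tdrd6*+/- cells. *Ldhc* alone had 4194 FPKM in *Tdrd6*-/- cells and 5634 FPKM in *Tdrd6*+/- cells, so the sums rest mostly on this gene. The log2 ratios of these 8 markers lay on both sides of 0. Somatic and other cell markers with values were low. The sums were 36.5 FPKM in *Tdrd6*-/- and 40.1 FPKM in *Tdrd6*+/- cells over 5 of 8 listed Sertoli cell genes. They were 25.7 FPKM in *Tdrd6*-/- and 26.8 FPKM in *Tdrd6*+/- cells over 5 of 6 listed Leydig cell genes. Over 5 of 6 listed spermatogonial genes the sums were 4.82 FPKM in *Tdrd6*-/- cells and 5.32 FPKM in *Tdrd6*+/- cells. *Lyz2*, the 1 of 5 listed leukocyte genes with a value, had 0.770 FPKM in *Tdrd6*-/- cells and 0.497 FPKM in *Tdrd6*+/- cells. *Acta2*, the 1 of 4 listed peritubular and vascular genes with a value, had 2.18 FPKM in *Tdrd6*-/- cells and 1.51 FPKM in *Tdrd6*+/- cells.

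All 8 genes had a lower FPKM in *Tdrd6*-/- cells than in *Tdrd6*+/- cells, by amounts that ran from 1.19-fold for *Smcp* to 4.45-fold for *Calml3*. By at least 1.5-fold, 4 of the 8 were lower (*Oaz3*, *Spem1*, *Car2* and *Calml3*), where 11.1% of all transcripts were as much lower in *Tdrd6*-/- cells. By at least 2-fold, 3 were lower (*Spem1*, *Car2* and *Calml3*), where 4.4% of all transcripts were, and none was higher by 1.5-fold, where 11.6% of all transcripts were. *Oaz3*, at 1.89-fold, was the smallest difference beyond 1.5-fold and *Oaz1*, at 1.42-fold, the largest one short of it. The median log2 ratio of the 8 genes was -0.71, beside 0.015 over all 19034 transcripts with a finite ratio, of which 48.8% were below 0. These counts follow from how the genes were chosen. In such a pool of cells, fewer cells of a stage and less RNA per cell cannot be told apart. The summed FPKM of all transcripts was itself lower in *Tdrd6*-/- cells, 494391 against 595632 in *Tdrd6*+/- cells. When both genotypes were set to the same sum, every log2 ratio moved up by 0.27, and *Smcp* then stood at 0.022 and *Fabp9* at -0.026, while the same 4 genes were lower by at least 1.5-fold. Of all transcripts past 1.5-fold either way, 48.9% were the lower ones as deposited and 18.7% after that rescaling.

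**Figure D1:**
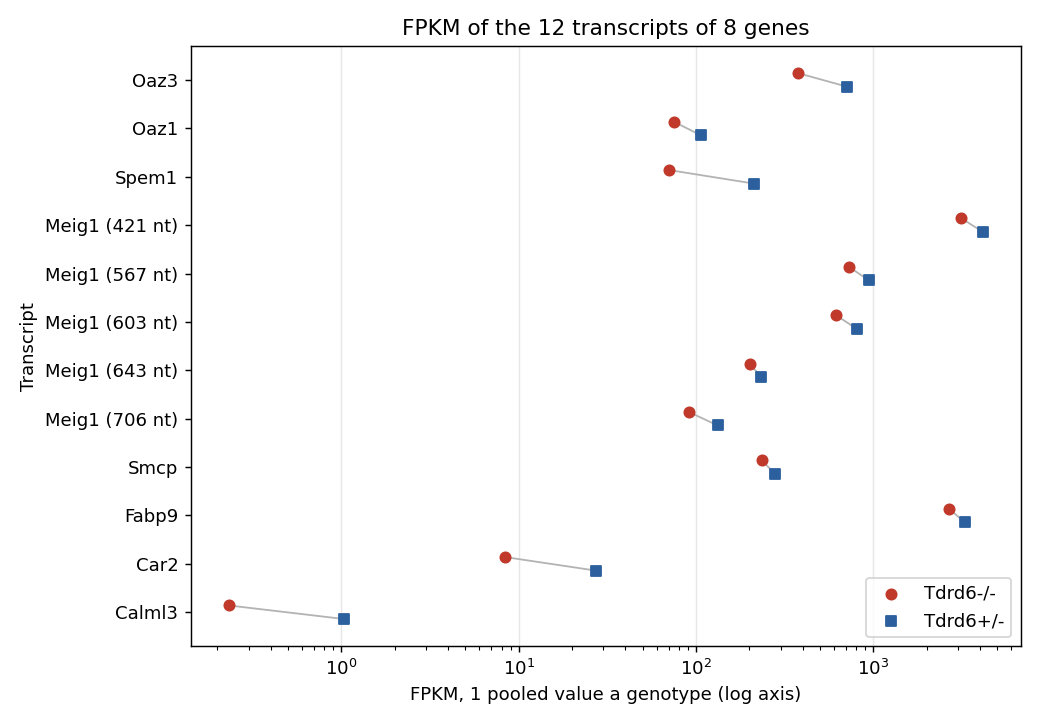
FPKM (log axis) of the 12 transcripts in *Tdrd6*-/- cells (red circles, upper point of each pair) and *Tdrd6*+/- cells (blue squares), 1 pooled value a genotype and so with no error bar. Each circle lies left of its square, from the closest pairs, *Meig1* of 643 nt and *Smcp*, to the widest, *Calml3* at 0.231 and 1.03 FPKM.

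*Oaz3*, the antizyme of haploid germ cells, was the more abundant of the 2 antizyme messengers with values in both genotypes. It had 377 FPKM in *Tdrd6*-/- cells and 713 FPKM in *Tdrd6*+/- cells, a log2 ratio of -0.92. It stood at place 190 among the 19077 transcripts in *Tdrd6*-/- cells and at place 109 in *Tdrd6*+/- cells. Of all transcripts, 5.16% had a log2 ratio as low or lower. The transcript, ENSMUST00000029787, has 6 exons at chr3:94237088-94240538 on the minus strand of mm9 and is 1132 nt long, with a coding part of 729 nt and a 3' UTR of 341 nt.

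*Oaz1*, the antizyme of most tissues, was also lower in *Tdrd6*-/- cells but by less. It had 74.6 FPKM in *Tdrd6*-/- cells and 106 FPKM in *Tdrd6*+/- cells, a log2 ratio of -0.51, and 13.8% of all transcripts were as low or lower. *Oaz3* was thus 5.06 times as abundant as *Oaz1* in *Tdrd6*-/- cells and 6.73 times as abundant in *Tdrd6*+/- cells. The log2 ratio of *Oaz3* less that of *Oaz1* was -0.41, a difference whose error is unknown. The *Oaz1* transcript ENSMUST00000060987 is close to that of *Oaz3* in build, with 6 exons at chr10:80289401-80292035 on the plus strand, 1071 nt in all and a 3' UTR of 286 nt. The microRNA gene *Mir1982* lies within the *Oaz1* locus on the same strand over 74 nt.

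The genes of the polyamine pathway around the antizymes lay for the most part near a log2 ratio of 0. *Odc1*, ornithine decarboxylase itself and the target of antizymes, had 68.7 FPKM in *Tdrd6*-/- cells and 67.1 FPKM in *Tdrd6*+/- cells, a log2 ratio of 0.034. *Azin1*, which binds antizyme and so shields ornithine decarboxylase, had 9.39 FPKM in *Tdrd6*-/- cells and 8.51 FPKM in *Tdrd6*+/- cells. Of 22 genes listed for polyamine synthesis, breakdown and use, 16 had values. None of these was lower by 1.5-fold, where 11.1% of all transcripts were. By as much, 2 were higher, where 11.6% of all transcripts were, and 14 were within that range. The median log2 ratio was -0.074. The lowest ratio among those of at least 1 FPKM was that of *Dhps*, which starts hypusine synthesis from spermidine, with 4.87 FPKM in *Tdrd6*-/- cells and 6.90 FPKM in *Tdrd6*+/- cells. *Sat2* followed with 2.00 FPKM in *Tdrd6*-/- cells and 2.37 FPKM in *Tdrd6*+/- cells. The higher ones were *Arg2*, an arginase that makes ornithine, with 1.51 FPKM in *Tdrd6*-/- cells and 0.612 FPKM in *Tdrd6*+/- cells, and *Atp13a3*, a polyamine transporter, with 3.16 FPKM in *Tdrd6*-/- cells and 1.67 FPKM in *Tdrd6*+/- cells. Both genes past 1.5-fold were thus of low level.

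The transcripts nearest to *Oaz3* in both the log2 of its *Tdrd6*+/- level and its log2 ratio, by straight distance over these 2 values, belonged to *Odf1*, *Gsg1*, *Gm9999*, *1700125D06Rik* and *1700003F12Rik*. *Odf1*, an outer dense fibre protein of the sperm tail, had 415 FPKM in *Tdrd6*-/- cells and 760 FPKM in *Tdrd6*+/- cells, a log2 ratio of -0.87. *Gsg1*, a germ cell gene, had 340 FPKM in *Tdrd6*-/- cells and 680 FPKM in *Tdrd6*+/- cells, a log2 ratio of -0.999. The other 3 had log2 ratios between -0.88 and -0.78. The likeness rests on 1 pooled value a genotype and so on 2 numbers a transcript.

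*Spem1*, which is needed for spermatids to strip the cytoplasm from the sperm head and neck, had the largest difference of the abundant genes. It had 70.1 FPKM in *Tdrd6*-/- cells and 211 FPKM in *Tdrd6*+/- cells, a 3.01-fold lower level and a log2 ratio of -1.59. A share of 1.92% of all transcripts was as low or lower. Its place by level was 1428 in *Tdrd6*-/- cells and 531 in *Tdrd6*+/- cells, so that *Spem1* stood just under *Oaz1* in *Tdrd6*-/- cells and above it in *Tdrd6*+/- cells. The transcript ENSMUST00000045771 has 3 exons at chr11:69634378-69635682 on the minus strand and is nearly all coding, with 933 of its 1041 nt in the reading frame and a 3' UTR of 28 nt, the shortest of the 8.

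*Meig1*, whose protein works at the manchette, the microtubule skirt of the elongating head, was the most abundant gene of the group. Its 5 transcripts share a reading frame of 267 nt and differ in length, so the split of reads among them is an estimate of the authors' software. The main one, ENSMUST00000115081, of 421 nt at chr2:3326382-3335853 on the minus strand, had 3137 FPKM in *Tdrd6*-/- cells and 4141 FPKM in *Tdrd6*+/- cells, a log2 ratio of -0.40. It was the transcript of place 2 in *Tdrd6*-/- cells and of place 5 in *Tdrd6*+/- cells, a higher place at a lower level. The transcript of 567 nt had 727 FPKM in *Tdrd6*-/- cells and 941 FPKM in *Tdrd6*+/- cells. That of 603 nt had 614 FPKM in *Tdrd6*-/- cells and 803 FPKM in *Tdrd6*+/- cells. The 2 scarcer forms bounded the range of the ratios, with 200.3 FPKM in *Tdrd6*-/- and 233 FPKM in *Tdrd6*+/- cells for the form of 643 nt, a log2 ratio of -0.22, and 90.8 FPKM in *Tdrd6*-/- and 132 FPKM in *Tdrd6*+/- cells for that of 706 nt, a log2 ratio of -0.55. Summed over the 5, *Meig1* had 4770 FPKM in *Tdrd6*-/- cells and 6251 FPKM in *Tdrd6*+/- cells, a log2 ratio of -0.39. The main transcript held 65.8% of that sum in *Tdrd6*-/- cells and 66.3% in *Tdrd6*+/- cells, and the sum was 0.965% of all FPKM in *Tdrd6*-/- cells and 1.05% in *Tdrd6*+/- cells.

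Of 9 listed genes whose proteins are reported to bind members of the group or to bind their partners, 8 had values. None of these was lower by 1.5-fold, where 11.1% of all transcripts were, and 2 were higher, where 11.6% were. The median log2 ratio was 0.11. *Ppp1r16a*, a phosphatase regulator, had the lowest ratio, with 27.8 FPKM in *Tdrd6*-/- cells and 35.7 FPKM in *Tdrd6*+/- cells. The 2 higher ones were the gametogenetin-binding genes, *Ggnbp1* with 14.7 FPKM in *Tdrd6*-/- cells and 3.79 FPKM in *Tdrd6*+/- cells, and *Ggnbp2* with 51.9 FPKM in *Tdrd6*-/- cells and 30.9 FPKM in *Tdrd6*+/- cells. The ratios of the partners thus lay on both sides of 0.

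*Smcp*, a cysteine-rich protein of the capsule around the midpiece mitochondria, differed least of the 8. It had 235 FPKM in *Tdrd6*-/- cells and 279 FPKM in *Tdrd6*+/- cells, a log2 ratio of -0.25, and 29.0% of all transcripts were as low or lower. Its place by level was 358 in *Tdrd6*-/- cells and 388 in *Tdrd6*+/- cells. This is the gene whose direction turned when the summed FPKM was set equal. ENSMUST00000098888 has 2 exons at chr3:92387814-92392896 on the minus strand and a length of 813 nt.

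Other genes of the mitochondrial sheath and midpiece lay on both sides of the log2 ratio of *Smcp*. Of 18 listed, 14 had values under their symbols, and *Armc12*, *Sept4*, *Sept7* and *Sept12* were not found. At least 1 deposited entry has a date in place of its gene symbol. Septins could thus be missed by symbol, and whether these were measured is not known here. Of these, 3 were lower by 1.5-fold, beside the 11.1% of all transcripts, none was higher and 11 were within that range. Their median log2 ratio was -0.30. At an equal summed FPKM, 1 of the 14 was lower by 1.5-fold. *Spata19*, a mitochondrial protein of the sheath, had 289 FPKM in *Tdrd6*-/- cells and 524 FPKM in *Tdrd6*+/- cells, a log2 ratio of -0.86 that is close to that of *Oaz3*. *Spata18* had 33.2 FPKM in *Tdrd6*-/- cells and 57.1 FPKM in *Tdrd6*+/- cells, and the third gene, *Klc3*, a kinesin light chain of the midpiece, had a log2 ratio of -0.76. *Gpx4*, the selenoprotein that makes up much of the capsule with SMCP, had 1166 FPKM in *Tdrd6*-/- cells and 1660 FPKM in *Tdrd6*+/- cells, a log2 ratio of -0.51. At the other end stood *Pld6*, with 21.9 FPKM in *Tdrd6*-/- cells and 19.3 FPKM in *Tdrd6*+/- cells, and *Slc25a31*, the germ cell ADP/ATP carrier, with 31.5 FPKM in *Tdrd6*-/- cells and 29.2 FPKM in *Tdrd6*+/- cells.

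*Fabp9*, a lipid-binding protein of the perforatorium under the acrosome, was the gene of the second highest level in both genotypes. It had 2666 FPKM in *Tdrd6*-/- cells and 3271 FPKM in *Tdrd6*+/- cells, a log2 ratio of -0.30. It held place 3 among all transcripts in *Tdrd6*-/- cells and place 6 in *Tdrd6*+/- cells, and its share of the summed FPKM was 0.539% in *Tdrd6*-/- cells and 0.549% in *Tdrd6*+/- cells. ENSMUST00000029038 has 4 exons at chr3:10193626-10197222 on the minus strand and is 583 nt long. Its family members were far scarcer, and 5 of 12 had values. *Fabp12* was the most abundant of them, with 42.0 FPKM in *Tdrd6*-/- cells and 73.1 FPKM in *Tdrd6*+/- cells, a log2 ratio of -0.80. *Fabp1* had 0.457 FPKM in *Tdrd6*-/- cells and 0.910 FPKM in *Tdrd6*+/- cells, *Crabp1* had 0.982 FPKM in *Tdrd6*-/- cells and 1.35 FPKM in *Tdrd6*+/- cells, and *Pmp2* and *Fabp3* were under 3 FPKM in both with log2 ratios of -0.18 and 0.076. *Fabp1* and *Fabp12* were the 2 of 5 that were lower by 1.5-fold, beside the 11.1% of all transcripts, and 1 was so at an equal summed FPKM.

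*Car2*, a cytosolic carbonic anhydrase that interconverts carbon dioxide and bicarbonate, was lower by 3.25-fold. It had 8.37 FPKM in *Tdrd6*-/- cells and 27.2 FPKM in *Tdrd6*+/- cells, a log2 ratio of -1.70, and 1.64% of all transcripts were as low or lower. Its place by level was 6734 in *Tdrd6*-/- cells and 3311 in *Tdrd6*+/- cells. ENSMUST00000029078 is the longest of the 8, with 1789 nt in 7 exons at chr3:14886426-14900769 on the plus strand and a 3' UTR of 679 nt. Red cells also carry much *Car2*, and *Alas2*, the one erythroid gene of 6 with a value, had 0.545 FPKM in *Tdrd6*-/- cells and 0.800 FPKM in *Tdrd6*+/- cells. The part of red cells in the *Car2* difference was not tested. Of 15 other carbonic anhydrase genes 4 had values, all of them lower in level than *Car2*. *Car9* had 0.0367 FPKM in *Tdrd6*-/- cells and 0.573 FPKM in *Tdrd6*+/- cells and was the one lower by 1.5-fold, at levels under 1 FPKM. *Car5a* had 3.60 FPKM in *Tdrd6*-/- cells and 3.89 FPKM in *Tdrd6*+/- cells, and *Car7* and *Car15* had log2 ratios of -0.30 and 0.24.

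*Calml3*, a calmodulin-like protein known from human epithelia, had the largest ratio and the lowest level. It had 0.231 FPKM in *Tdrd6*-/- cells and 1.03 FPKM in *Tdrd6*+/- cells, a log2 ratio of -2.15. With 1 added to both values, the log2 ratio became -0.72. Its place by level was 18830 of 19077 in *Tdrd6*-/- cells and 14655 in *Tdrd6*+/- cells, so that it was close to the bottom of the tables. The gene has a single exon, ENSMUST00000077698, at chr13:3802139-3803564 on the minus strand, with 1426 nt and the longest 3' UTR of the group at 861 nt. Among the calmodulin genes proper, *Calm2* had 287 FPKM in *Tdrd6*-/- cells and 192 FPKM in *Tdrd6*+/- cells. *Calm3* had 153 FPKM in *Tdrd6*-/- cells and 169 FPKM in *Tdrd6*+/- cells. *Calml4* was the one of the family list that was lower by 1.5-fold, with 1.45 FPKM in *Tdrd6*-/- cells and 2.58 FPKM in *Tdrd6*+/- cells, and none was so at an equal summed FPKM.

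**Figure D2:**
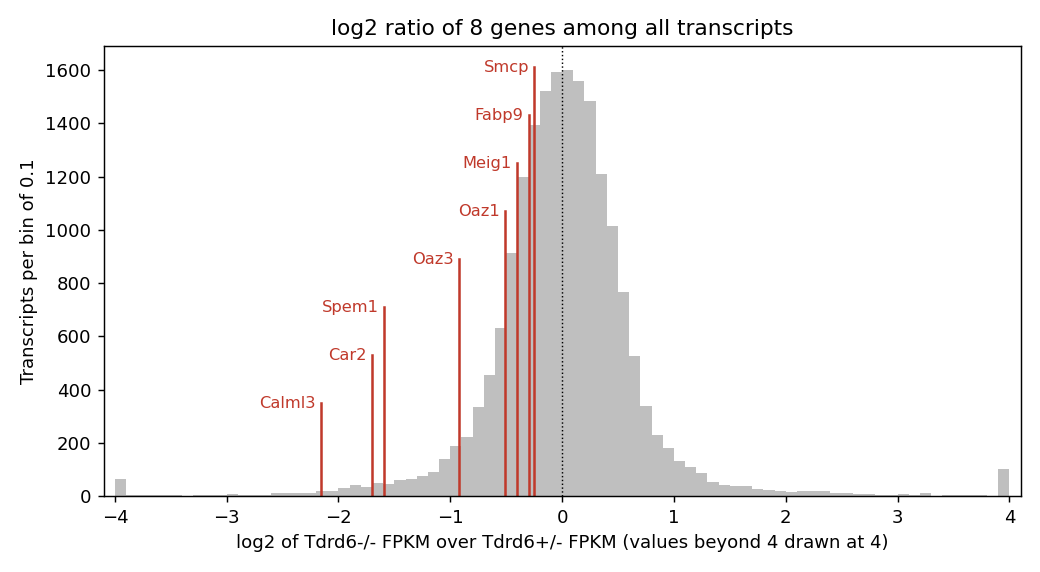
Histogram of the log2 ratio of *Tdrd6*-/- over *Tdrd6*+/- FPKM for all transcripts (grey, with values beyond the ends of the axis drawn at the ends), with a red line for the main transcript of each of the 8 genes. The heights of the red lines carry no value. *Smcp*, *Fabp9*, *Meig1* and *Oaz1* lie within the bulk, and *Oaz3*, *Spem1*, *Car2* and *Calml3* lie in the lower tail.

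In order of level the genes stood apart by steps of very unequal size. In *Tdrd6*-/- cells the order was *Meig1*, *Fabp9*, *Oaz3*, *Smcp*, *Oaz1*, *Spem1*, *Car2* and *Calml3*. In *Tdrd6*+/- cells *Spem1* and *Oaz1* changed places. *Meig1* was 1.18 times the level of *Fabp9* in *Tdrd6*-/- cells and 1.27 times in *Tdrd6*+/- cells, and *Oaz1* was 1.07 times the level of *Spem1* in *Tdrd6*-/- cells. The widest step was that between *Car2* and *Calml3*, 36.2-fold in *Tdrd6*-/- cells and 26.5-fold in *Tdrd6*+/- cells. Without values for single animals it is not known which neighbours in this order differ beyond their spread.

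The genes shared short messengers. Length was not a criterion of their choice but is not independent of it, since it moved with the log2 ratio that was in view. Their main transcripts were 421 to 1789 nt long, with a median of 1056 nt, beside a median of 2341 nt over the 18860 transcripts with a known length. By the 3' UTR tables, 6 of the 8 were among the short and 2, *Car2* and *Calml3*, among the medium transcripts. Transcripts of up to 1000 nt had a median log2 ratio of -0.31 and 24.2% of them were lower by 1.5-fold, those of 1000 to 2000 nt had a median of -0.15 with 14.2% lower, and longer ones had a median of 0.16 with 6.31% lower. In the table of short 3' UTRs, 16.3% of transcripts were lower by 1.5-fold and 2 of the 6 genes there, *Oaz3* and *Spem1*, were. The part of transcript length in the lower levels of the 8 genes was not tested.

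**Figure D3:**
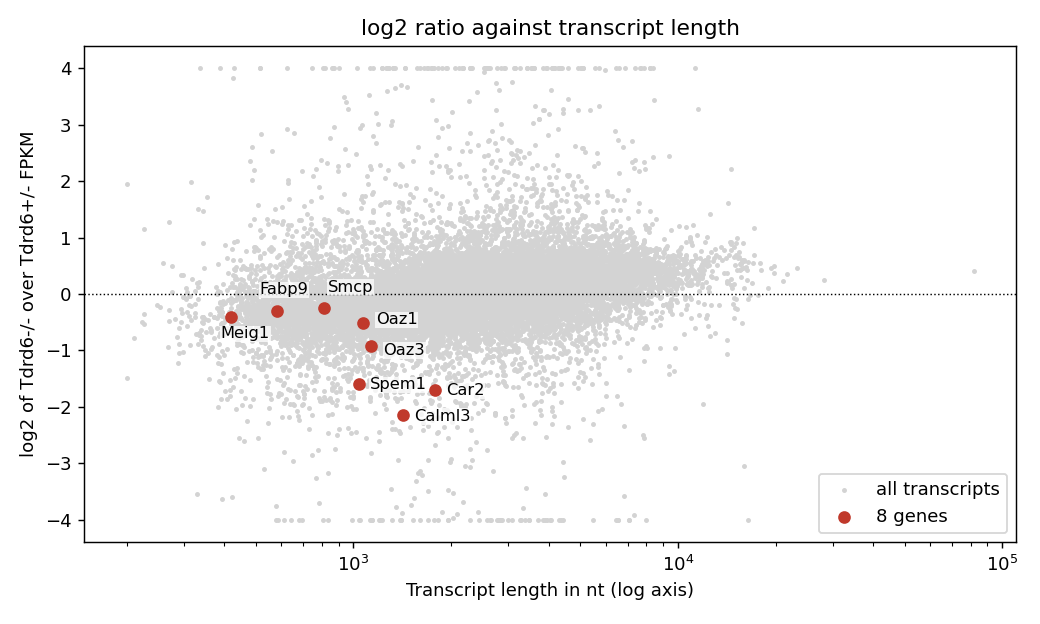
log2 ratio of *Tdrd6*-/- over *Tdrd6*+/- FPKM against transcript length in nt (log axis) for all transcripts (grey points) and for the main transcript of the 8 genes (red). The 8 genes lie between 421 and 1789 nt and below 0. *Spem1*, *Car2* and *Calml3* lie in the lower part of the grey cloud at their length.

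The hexamer AATAAA, the usual letters of the poly(A) signal, was looked for in the last 60 nt of each transcript on its own strand. It was present in 57.6% of the 18849 transcripts with an annotated 3' UTR. Among the 8 genes, *Oaz1*, *Oaz3*, *Spem1*, *Car2*, *Calml3* and *Fabp9* had it, whereas *Smcp* and the 5 transcripts of *Meig1* did not. In *Spem1*, with its 3' UTR of 28 nt, it began 8 nt from the annotated end, and in *Oaz3* it began 38 nt from it. No other hexamer was looked for, and a relation of these letters to the levels was not tested.

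Markers of late spermatids were lower together with the group. All 8 of them had values, and their sum was 5688 FPKM in *Tdrd6*-/- cells and 20892 FPKM in *Tdrd6*+/- cells, 1.15% of all FPKM in *Tdrd6*-/- cells and 3.51% in *Tdrd6*+/- cells. Of the 8 markers, 6 were lower by 1.5-fold, beside the 11.1% of all transcripts, and none was higher. Their median log2 ratio was -1.40. Single levels ran from 61.6 to 1840 FPKM in *Tdrd6*-/- cells and from 91.0 to 6466 FPKM in *Tdrd6*+/- cells. *Prm1*, a protamine that packs sperm DNA, had 1162 FPKM in *Tdrd6*-/- cells and 5521 FPKM in *Tdrd6*+/- cells, and *Tnp2*, a transition protein, had 1254 FPKM in *Tdrd6*-/- cells and 5073 FPKM in *Tdrd6*+/- cells. *Spem1* and *Car2*, with log2 ratios of -1.59 and -1.70, lay between the median of these markers and their lowest member, *Prm1*, at -2.25. So did *Calml3*, at -2.15 but at a far lower level. *Oaz3* lay beside *Odf1*, itself a marker on that list. *Meig1*, *Fabp9* and *Smcp* lay between *Akap4*, at -0.56, and *Gapdhs*, the marker with the highest ratio, at -0.19. *Oaz1*, the antizyme of most tissues, lay in that range too, at -0.51, so a place there is not particular to spermatid genes.

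The round spermatid markers were lower as well but by less, with 3 of 8 lower by 1.5-fold, beside the 11.1% of all transcripts, none higher and a median log2 ratio of -0.53. At an equal summed FPKM none of these 8 was lower by 1.5-fold, while 6 of the 8 late spermatid markers still were. Their sum was 1167 FPKM in *Tdrd6*-/- cells and 1631 FPKM in *Tdrd6*+/- cells. None of the 8 pachytene markers passed 1.5-fold either way, while 2 were higher by 1.5-fold at an equal summed FPKM. Their median log2 ratio of 0.041 covers a spread. *Ldhc* was at -0.43, *Pgk2* at -0.27, *Ccna1* at -0.019 and *Adam2* at -0.012. *Hspa2* was at 0.094, *Sycp3* at 0.30, *Sycp1* at 0.45 and *Piwil1* at 0.52. The part of a different mix of spermatid stages in the levels of *Oaz3*, *Spem1*, *Car2* and the other genes was not tested.

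**Figure D4:**
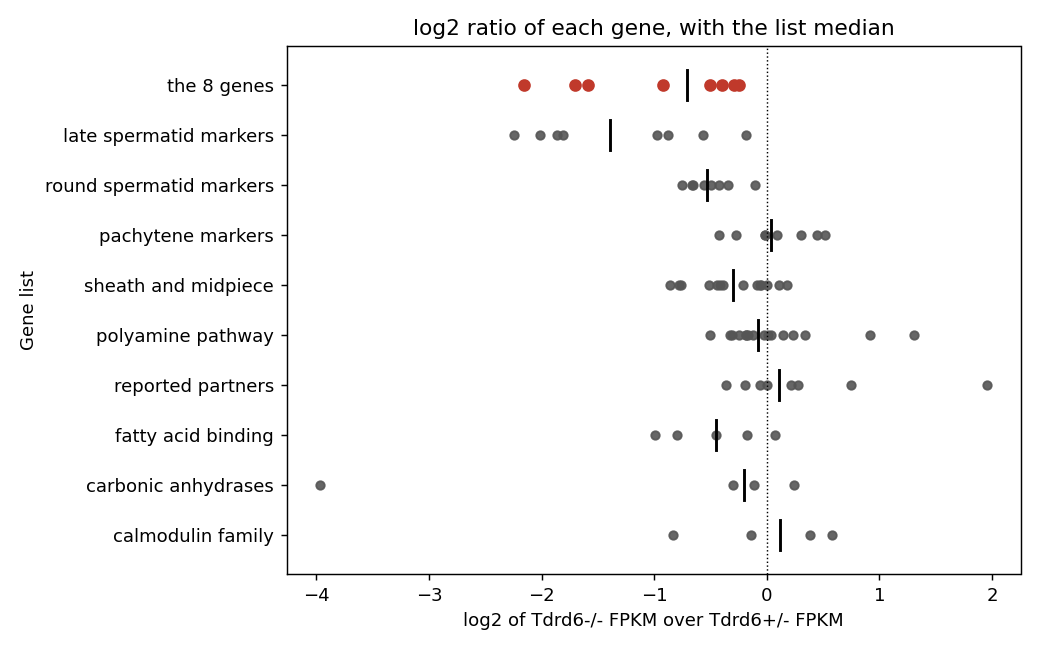
log2 ratio of *Tdrd6*-/- over *Tdrd6*+/- FPKM for the main transcript of the 8 genes (red points) and of each gene with values on 3 marker lists and 6 pathway or family lists (grey points), with a black bar at the median of each list. The bar of the 8 genes, at -0.71, lies between those of the late spermatid markers, at -1.40, and of the round spermatid markers, at -0.53, and the polyamine, partner and calmodulin lists centre near 0.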

How the data were processed

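RNA of hCD4-selected testicular cells was sequenced from 4 *Tdrd6*-/- and 4 *Tdrd6*+/- mice. The study's methods give rRNA depletion and a directional kit, and the labels give poly-dT enrichment. The FPKM values were made by the authors with Cuffdiff from reads aligned to mm9. Alignment by TopHat2 2.0.9 and assembly by Cufflinks 2.1.1 are credited to the processing notes of the submitters. The authors deposited 3 tables, by 3' UTR length, with 1 FPKM a genotype. How libraries were scaled to each other and whether counting used strand are not given in the sources used here. Depth per sample and the precision of an FPKM are unknown from these tables, and with 1 pooled value a genotype no test was possible. The tables also hold the authors' own log2 ratios, test statistics, p-values and q-values, which were not used.

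The 19882 entries were reduced to 19077 distinct transcripts, since 805 were listed in more than 1 table with equal values. The log2 ratio was taken without a pseudocount, and 43 transcripts with a value of 0 had none. No filter on low values was applied. A gene of several transcripts was represented by that of the highest mean FPKM. A transcript was called lower or higher past 1.5-fold or 2-fold. All 8 genes with values were named, with every transcript of each. Of each pathway or family list, the 2 lowest and the 2 highest log2 ratios at a mean of at least 1 FPKM were named, or every gene where 6 or fewer had values, except that some items are not reported here. *Odc1*, *Azin1*, *Klc3*, *Gpx4* and the single markers of cell types were named after their values were seen. The genes, lists and marker genes were chosen with earlier results of these data known.

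Lengths, exons, coordinates and sequences came from GENCODE M1 and its mm9 genome, where transcripts were matched by identifier. This is not the Ensembl release of the study. The log2 ratio and the counting were checked on *Tdrd6*+/- values changed by known folds, a check of the arithmetic only. Alternatives were pseudocounts of 0.1 and 1, centring on the median of all transcripts or of the same table, a mean FPKM of at least 1 or 5, sums over a gene's transcripts and, chosen after the values were seen, an equal summed FPKM. Python 3.11.15, numpy 2.4.6, pandas 2.3.3 and matplotlib 3.10.9 were used.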

Additional observations from a re-analysis of the deposited data

How the results depend on the processing

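No paired analysis was possible because each genotype has 1 pooled value, and for the same reason no library could be left out. *Oaz3* could not be compared with *Oaz2*, which has no value used here. Of 62 log2 ratios of single genes under 8 alternatives, 61 were below 0. Most of these could not have turned. A pseudocount cannot change a sign, and a filter on mean FPKM only leaves genes out. Sums could not either, since every transcript of these genes was lower in *Tdrd6*-/- cells. Only the 2 centrings and the equal summed FPKM could turn a sign. The exception was *Smcp*, at 0.022 after both genotypes were set to the same summed FPKM, an alternative chosen after the values were seen. The number of genes lower by 1.5-fold was 4 and that lower by 2-fold was 3, or 1 fewer each under a mean of at least 1 or 5 FPKM, which leaves out *Calml3*, and 2 for 2-fold with a pseudocount of 1. The median log2 ratio of the genes was -0.61 with a pseudocount of 1, -0.58 after centring on the same table, -0.51 with a mean of at least 1 or 5 FPKM and -0.44 at an equal summed FPKM. The share of all transcripts lower by 1.5-fold was 5.68% with a pseudocount of 1 and 5.92% at an equal summed FPKM. The share lower by 2-fold was 1.28% with a pseudocount of 1, 2.66% and 1.90% with a mean of at least 1 and 5 FPKM, and 2.90% at an equal summed FPKM. The share higher by 1.5-fold was 4.54% with a pseudocount of 1, 4.59% with a mean of at least 5 FPKM and 25.7% at an equal summed FPKM. Among transcripts past 1.5-fold, 48.9% were lower as deposited, 64.0% with a mean of at least 5 FPKM and 18.7% at an equal summed FPKM. The log2 ratio of *Oaz3* less that of *Oaz1* was -0.41, or -0.42 with a pseudocount of 1. *Calml3* lay near the bottom of the tables by level, and the tables give no precision for it.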
